A study of Mus musculus with 16 samples.

Results

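The small nuclear, nucleolar and catalytic RNAs of macrophages were examined in thioglycolate-elicited mouse peritoneal macrophages that had been loaded with oxidised LDL (oxLDL, modified lipoprotein particles that turn macrophages into lipid-filled foam cells). The RNAs were chosen by gene symbol, with earlier results of these data known. They were every entry of the expression table whose symbol begins with Snord, Snora, Scarna or Rnu, together with Rn7sk, Rmrp, Rpph1 and Terc. Of 48432 genes in the table, 175 entries carried such a symbol and 34 of them, with 32 different symbols, had a value above 0 in at least 1 group. The study compared macrophages that overexpress LDAH, a lipid droplet-associated hydrolase, and macrophages that lack it, each with their own wild-type (WT) controls, at 4 samples a group and 16 samples in all.

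The LDAH-Tg cells came from mice of the C57BL/6J strain label carrying an LDAH transgene under the Csf1r promoter and its intronic enhancer, which is active in macrophages and granulocytes, from founders made in B6D2F1 embryos and crossed to C57BL/6. Their controls were cells labelled LDAH ApoE control. The LDAH-KO cells carried a cassette that replaces several coding exons of Ldah, and their controls were labelled LDAH WT. Whether the donor mice also lacked Apoe is not given for these samples, and Apoe itself stood at 7947 TPM in LDAH-Tg cells, 8775 TPM in the WT controls of LDAH-Tg, 10404 TPM in LDAH-KO cells and 9565 TPM in the WT controls of LDAH-KO. All groups shared the same loading, 50 μg/ml oxLDL for 48 h in medium with 1% serum, and all cells were collected 5 days after 3% thioglycolate. The deposited values are means of each group in TPM (transcript abundance scaled by transcript length and to a common library total), so no spread between the 4 samples can be given, no test could be run, the read depth behind each value is unknown, and every difference below is a description of 2 group means with no replicate check.

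These RNAs work as RNA and are not translated. Small nucleolar RNAs (snoRNAs) guide the chemical modification of ribosomal RNA, box C/D snoRNAs by ribose methylation and box H/ACA snoRNAs by conversion of uridine to pseudouridine, and most of them are cut out of the introns of host genes. Small Cajal body RNAs (scaRNAs) do the same for spliceosomal RNAs, whereas Rn7sk, Rmrp and Rpph1 are made from genes of their own by RNA polymerase III. Most of these RNAs end without a poly(A) tail, and the libraries were enriched for poly(A) RNA, so the values describe what such a library retained of them.

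The transcripts on which the results below turn are printed here 5′ to 3′ in DNA letters, as annotated on GRCm38 in GENCODE M21. Rn7sk is the 7SK RNA, the scaffold that holds the elongation kinase P-TEFb inactive. Its first 100 of 331 bases, at chr9:78175534-78175633 on the minus strand, are shown because the 5′ hairpin holds the GATC motif bound by Hexim proteins, and the capitals mark each GATC on the printed strand.

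Rn7sk: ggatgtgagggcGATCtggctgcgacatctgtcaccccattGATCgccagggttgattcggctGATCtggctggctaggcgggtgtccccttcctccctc

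GATC occurred 3 times in this stretch. Of the 175 entries, 32.6% held at least 1 GATC in their first 100 bases. Rn7sk was the 1 entry (0.571%) that held 3 or more. Of these entries 91 are shorter than 100 bases and so offered less sequence to search. Rmrp is the RNA of RNase MRP, the nuclease that cuts precursor ribosomal RNA, and Rpph1 is the catalytic RNA of RNase P, which removes the 5′ leader of precursor tRNAs. Rmrp is printed whole (271 bases, chr4:43492788-43493058, minus strand), with capitals for the 124 bases that lie opposite an exon of Ccdc107 on the other strand. Rpph1 is printed for the first 300 of its 319 bases (chr14:50807468-50807767, minus strand), with capitals for a 21-base unit that stands there in 2 direct copies.

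Rmrp: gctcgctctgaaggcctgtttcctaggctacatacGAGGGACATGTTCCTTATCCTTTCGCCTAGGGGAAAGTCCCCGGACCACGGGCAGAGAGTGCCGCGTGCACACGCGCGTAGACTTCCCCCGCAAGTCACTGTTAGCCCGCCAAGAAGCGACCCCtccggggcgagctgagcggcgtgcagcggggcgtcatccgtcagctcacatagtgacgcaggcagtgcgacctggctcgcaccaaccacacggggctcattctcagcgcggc
Rpph1: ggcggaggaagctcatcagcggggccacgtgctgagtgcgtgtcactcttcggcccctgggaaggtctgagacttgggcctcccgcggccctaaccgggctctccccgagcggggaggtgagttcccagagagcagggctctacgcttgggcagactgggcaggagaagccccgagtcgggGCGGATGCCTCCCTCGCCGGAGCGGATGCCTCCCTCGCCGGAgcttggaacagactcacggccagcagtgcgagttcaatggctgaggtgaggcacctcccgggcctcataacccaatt

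Snora73a and Snora73b are a pair of H/ACA snoRNAs (U17) that act in the cleavage of precursor ribosomal RNA and lie within Snhg3, at chr4:132352775-132352979 and chr4:132352322-132352526 on the minus strand. They are shown because they are so alike that reads of one can be counted for the other. Each has 205 bases, 7 of which differ (96.6% identity), and the capitals mark these bases.

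Snora73a: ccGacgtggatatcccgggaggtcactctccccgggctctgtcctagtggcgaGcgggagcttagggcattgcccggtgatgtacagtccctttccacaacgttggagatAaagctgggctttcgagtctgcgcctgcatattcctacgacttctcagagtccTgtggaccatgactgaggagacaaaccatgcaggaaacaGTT
Snora73b: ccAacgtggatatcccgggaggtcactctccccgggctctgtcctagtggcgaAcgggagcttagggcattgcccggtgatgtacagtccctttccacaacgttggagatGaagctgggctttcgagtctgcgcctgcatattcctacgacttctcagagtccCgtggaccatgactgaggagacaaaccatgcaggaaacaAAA

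Snord22 (U22, chr19:8725866-8725991, plus strand) and Snord16a (U16, chr9:64175423-64175521, plus strand) are the box C/D snoRNAs with the highest mean TPM over the 4 groups. Capitals mark CTGA near the 3′ end, the letters of box D.

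Snord22: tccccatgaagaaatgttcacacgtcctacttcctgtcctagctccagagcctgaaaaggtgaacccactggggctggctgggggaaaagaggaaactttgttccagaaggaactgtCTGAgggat
Snord16a: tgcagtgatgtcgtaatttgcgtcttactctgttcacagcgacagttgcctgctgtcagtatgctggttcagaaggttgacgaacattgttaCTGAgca

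All 6 box C/D snoRNAs with a value held CTGA in their last 20 bases, as did 97.8% of the 93 box C/D entries without one. TGATGA, the letters of box C, stood in the first 20 bases of 4 of the 6 with a value and of 71.0% of the 93 without. ACA stood in the last 6 bases of all 17 box H/ACA entries with a value and of 87.5% of the 24 without. These searches were made on the transcript strand only.

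The entries with a value were mostly the longer ones. The entries with a value had a median annotated length of 148 bases (99 to 423), and those without one had a median of 94 bases (62 to 216). Of the 91 entries under 100 bases, 1 had a value, which was Snord16a. Of the 21 entries of 200 bases or more, 13 had a value, and 7 of these had one in all 4 groups.

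**Figure D1:**
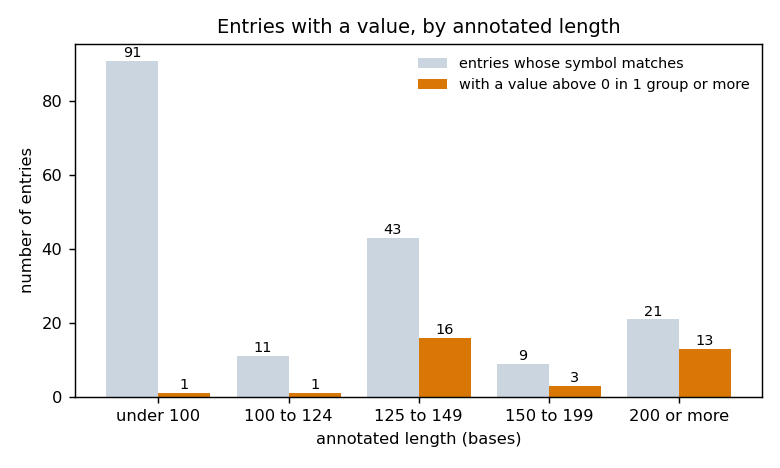
Number of entries whose symbol matches (grey bars) and of those with a value above 0 in at least 1 group (orange bars), on the vertical axis, by annotated length in bases on the horizontal axis. Of the entries under 100 bases 1 of 91 had a value, against 13 of 21 at 200 bases or more.

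By class, a value was present for 4 of 4 catalytic or RNA polymerase III RNAs, 6 of 99 box C/D snoRNAs, 17 of 41 box H/ACA snoRNAs, 4 of 9 scaRNAs and 3 of 22 Rnu entries. The number above 0 was 24 in LDAH-Tg cells, 23 in the WT controls of LDAH-Tg, 13 in LDAH-KO cells and 16 in the WT controls of LDAH-KO. A total of 8 entries were above 0 in all 4 groups, namely Rn7sk, Rmrp, Rpph1, Scarna2, Snord17, Snord22, Snora73a and Snora73b. The plot of their levels shows how they stood in each group.

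**Figure D2:**
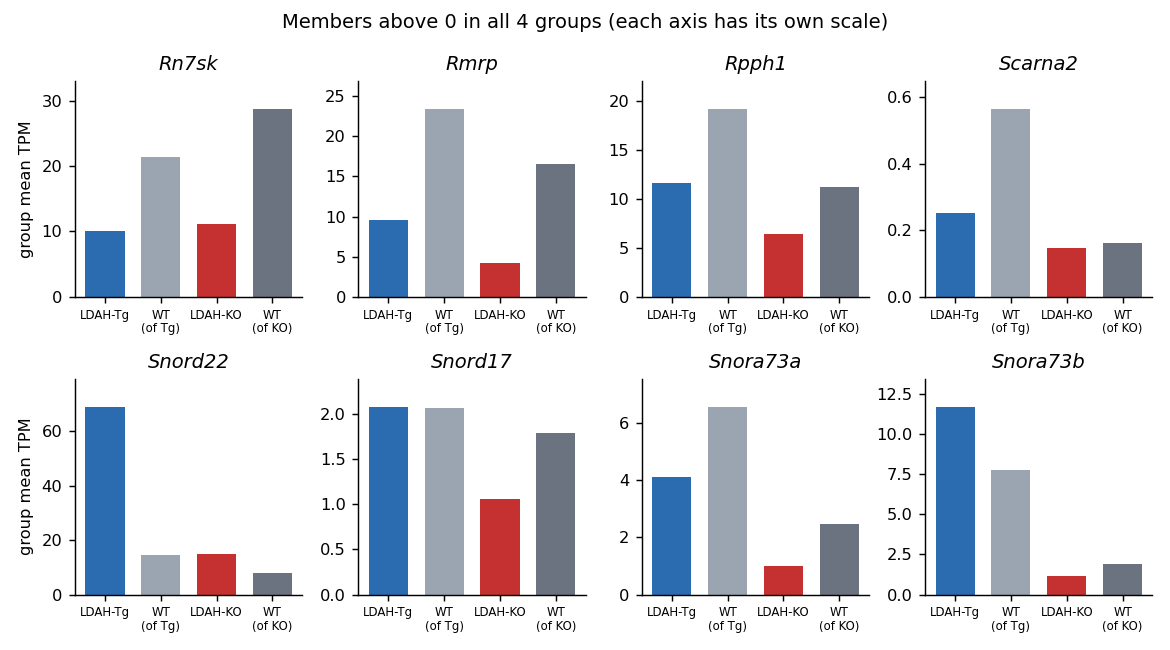
Group mean TPM (vertical axes, each with its own scale from 0) of the 8 entries above 0 in all 4 groups, with 1 bar for each group and no error bars since the deposited values are group means. Rn7sk, Rmrp, Rpph1 and Snora73a were lower in LDAH-Tg and in LDAH-KO cells than in the WT controls of each, and Snord22 was higher in both.

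Rn7sk, Rmrp and Rpph1 were lower in LDAH-Tg cells and in LDAH-KO cells than in the WT controls of each. Rn7sk stood at 10.1 TPM in LDAH-Tg cells and 21.4 TPM in their WT controls, and at 11.2 TPM in LDAH-KO cells and 28.7 TPM in their WT controls. The log2 ratio, taken after adding 0.5 TPM to each mean, placed Rn7sk at rank 16 from the lowest of 11395 genes in LDAH-Tg against WT and at rank 21 of 11289 in LDAH-KO against WT. In each comparison the mean of the LDAH group was the lower one.

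Rmrp, the RNA of RNase MRP, had 9.62 TPM in LDAH-Tg cells against 23.4 TPM in their WT controls, with a log2 ratio of -1.24. It had 4.25 TPM in LDAH-KO cells against 16.5 TPM in their WT controls, with a log2 ratio of -1.84 that was rank 4 from the lowest of all genes compared. No other member with a ratio had a lower one in either comparison. Rpph1, the RNA of RNase P, shares most protein subunits with Rmrp and showed a smaller difference in the same direction. It had 11.7 TPM in LDAH-Tg cells and 19.2 TPM in their WT controls (log2 ratio -0.69), and 6.40 TPM in LDAH-KO cells and 11.3 TPM in their WT controls (log2 ratio -0.77). Terc, the template RNA of telomerase, was near 0 throughout, with 0.180 TPM in LDAH-Tg cells, 0.542 TPM in their WT controls, and a listing at 0 in LDAH-KO cells and in their WT controls. The 4 RNAs summed to 31.5 TPM in LDAH-Tg cells and 64.5 TPM in their WT controls, a ratio of 0.489, and to 21.9 TPM in LDAH-KO cells and 56.5 TPM in their WT controls, a ratio of 0.387. In bulk samples, fewer cells of a type and less RNA per cell cannot be told apart.

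Some genes overlap these RNAs or share sequence with them. Ccdc107, whose exon lies opposite the capital letters of Rmrp, stood at 123.8 TPM in LDAH-Tg cells and 103.9 TPM in their WT controls (log2 ratio 0.25), and at 49.5 TPM in LDAH-KO cells and 44.9 TPM in their WT controls (0.14). Ccnb1ip1, whose exon covers 233 bases of Rpph1 on the same strand, reached at most 0.009 TPM and had no ratio. Of the 30-base words of Rn7sk, 73.5% were also found in a gene of the table that does not overlap it. This share was 6.55% for Rpph1 and none for Rmrp. Words shared with an overlapping gene, such as Ccnb1ip1 for Rpph1, were not counted in these shares. The level of Rn7sk thus depends on how shared reads were assigned, and the levels of the non-overlapping genes were not examined. The level of Rpph1 can likewise depend on how reads shared with Ccnb1ip1 were assigned. The kit marks strand, but whether the counting used it is not given in the sources used here.

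Across all members, values low in both groups or listed at 0 left few to compare. A log2 ratio was taken where a gene averaged at least 1 TPM over the 2 groups and neither group was at 0, and a difference was counted when it reached a factor of 1.5. In LDAH-Tg against WT, 13 members had a ratio, of which 8 were lower (0.685% of all 11395 genes were) and 1 was higher (1.26% of all genes were), with a median log2 ratio of -0.69 beside 0.00 for all genes. In LDAH-KO against WT, 8 members had a ratio, of which 4 were lower (1.83% of all 11289 genes were) and 1 was higher (0.39% of all genes were), with a median of -0.66 beside -0.08 for all genes. The members had to clear the level filter, and none of these counts stands for the 34. Short transcripts in general passed the factor more often than all genes. Among other genes with at most 450 bases of exon, 12.4% of 185 were lower and 14.6% higher in LDAH-Tg against WT, and 16.0% of 219 were lower and 8.68% higher in LDAH-KO against WT. Without the members that overlap an exon of another gene on the same strand (Snord22, Snord16a, Rpph1, Snora33 and Snora73a among those with ratios), 5 were lower in LDAH-Tg and 2 in LDAH-KO, and none was higher in either.

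**Figure D3:**
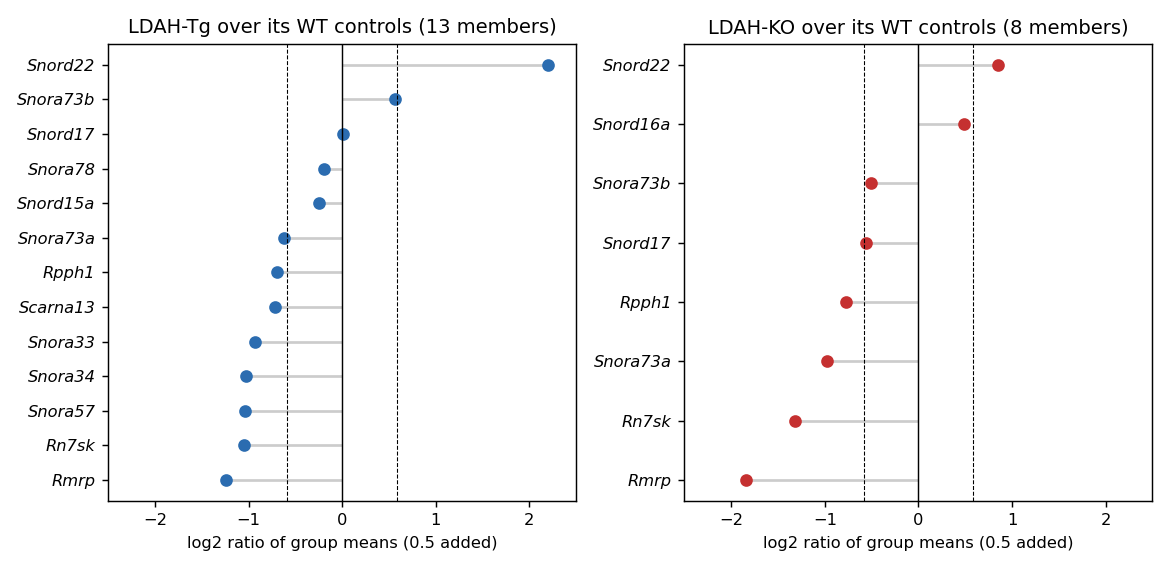
Log2 ratio of group means (0.5 TPM added, horizontal axes) for each member with a ratio, in LDAH-Tg over WT on the left (13 members) and LDAH-KO over WT on the right (8 members), with dashed lines at a factor of 1.5. Snord22 stands highest and Rmrp lowest in both.

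**Figure D4:**
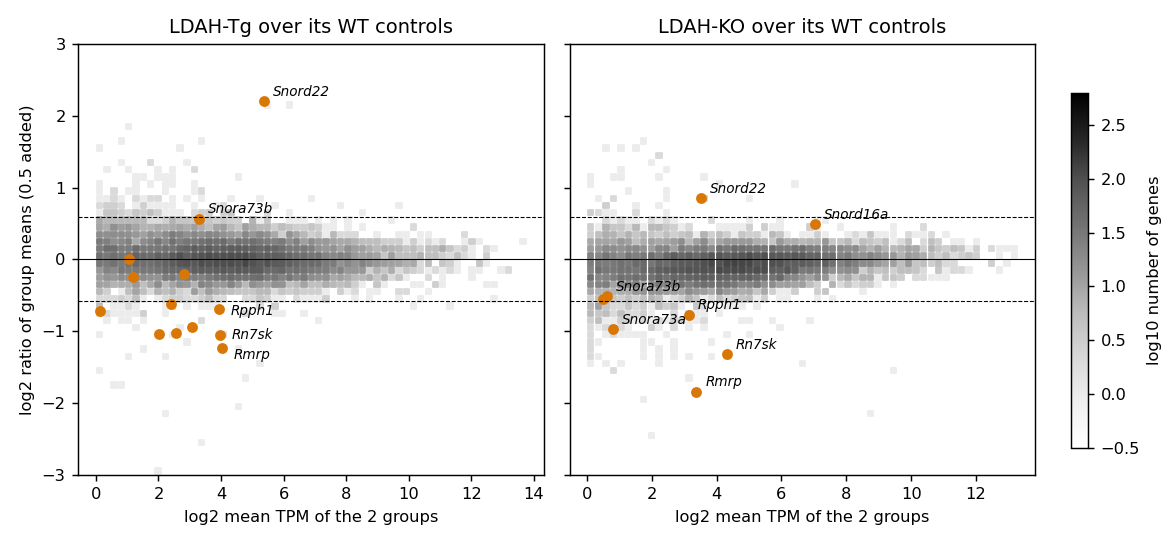
Log2 ratio of group means (vertical axis) against log2 mean TPM of the 2 groups (horizontal axis) for all genes with a ratio as grey squares, darker where more genes fall, and for the members as orange points, in LDAH-Tg over WT on the left and LDAH-KO over WT on the right. Dashed lines mark a factor of 1.5, and Rn7sk and Rmrp lie below most genes of their level in both.

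The same members made up much of what was lower in both comparisons. The 2 comparisons share no control samples, and 10858 genes had a ratio in both, 7 of them members. Of these genes 8 were lower by a factor of 1.5 in both, and 4 of the 8 were members, namely Rmrp, Rn7sk, Rpph1 and Snora73a (the last short of the factor in LDAH-Tg against WT with a pseudocount of 1, and with a sign that turns there once it is summed with Snora73b). A further pair, Gm22513 and Gm24967, are annotated as small nuclear RNAs under other symbols. Gm22513 had 20.3 TPM in LDAH-Tg cells against 57.9 TPM in their WT controls, and 7.25 TPM in LDAH-KO cells against 19.8 TPM in their WT controls. Gm24967 had 92.5 TPM in LDAH-Tg cells against 163.5 TPM in their WT controls, and 352 TPM in LDAH-KO cells against 1035 TPM in their WT controls. These genes were named after their values were seen. Other entries annotated as small nuclear, nucleolar or Cajal body RNA or ribozyme did not all go the same way, with 8 lower and 4 higher of 17 with a ratio in LDAH-Tg against WT, and 4 lower and 5 higher of 13 in LDAH-KO against WT. Of the 5 genes higher by a factor of 1.5 in both, 1 was a member, Snord22.

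Snord22, which acts in the processing of precursor ribosomal RNA, was the member with the highest ratio. It had 68.9 TPM in LDAH-Tg cells and 14.6 TPM in their WT controls, which is 4.72 times as high, and its log2 ratio of 2.2 was the highest of all 11395 genes. It had 15 TPM in LDAH-KO cells and 8.09 TPM in their WT controls, with a log2 ratio of 0.85. Snord22 was thus higher in both comparisons, with the larger ratio in LDAH-Tg against WT, and the difference between the ratios was not tested. All 126 bases of the printed Snord22 also lie in an annotated exon of its host Snhg1, a non-coding RNA whose introns carry several snoRNAs. Snhg1 itself had 85.1 TPM in LDAH-Tg cells and 76.1 TPM in their WT controls (log2 ratio 0.16), and 37.9 TPM in LDAH-KO cells and 30.2 TPM in their WT controls (0.32).

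Hosts and snoRNAs were compared in the same way for the rest. A host was found for 22 of the 34 members, in 19 genes, and 13 of the 22 overlapped an exon of it. Among members with a ratio, 5 of 8 had the sign of their host in LDAH-Tg against WT and 2 of 5 in LDAH-KO against WT. The hosts of these members had log2 ratios between -0.66 (Snhg9) and 0.33 (Snhg3) in LDAH-Tg against WT. In LDAH-KO against WT they lay between 0.06 and 0.32. Over all 19 hosts the range was wider, from -0.66 (Snhg9) to 0.43 (Gm15832) in LDAH-Tg against WT. In LDAH-KO against WT all hosts ran from -0.38 (Gm15832) to 0.79 (Snhg9). The member differed by more than its host in 6 of 8 and 5 of 5 cases.

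The entries of the Snora73 pair had opposite signs in LDAH-Tg against WT, where reads of one can be counted for the other. The part of read assignment in these signs was not tested. Exons of Gm17300 on the other strand lie opposite 175 bases of Snora73a and 205 bases of Snora73b. Snora73a had 4.10 TPM in LDAH-Tg cells and 6.57 TPM in their WT controls (log2 ratio -0.62), whereas Snora73b had 11.7 TPM in LDAH-Tg cells and 7.75 TPM in their WT controls (0.56). Added together they stood at 15.8 TPM in LDAH-Tg cells and 14.3 TPM in their WT controls (0.14), so the opposite signs cancelled. In LDAH-KO against WT both had a negative ratio, Snora73a past a factor of 1.5 and Snora73b past it only with less than 0.5 TPM added (-0.68 with nothing added). Snora73a had 1.01 TPM in LDAH-KO cells and 2.46 TPM in their WT controls (-0.97), and Snora73b had 1.17 TPM in LDAH-KO cells and 1.88 TPM in their WT controls (-0.51). Their sum was 2.18 TPM in LDAH-KO cells and 4.33 TPM in their WT controls (-0.85). Snhg3, the host of both, had 95.0 TPM in LDAH-Tg cells and 75.4 TPM in their WT controls (0.33), and 42.6 TPM in LDAH-KO cells and 37.6 TPM in their WT controls (0.18).

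Other H/ACA snoRNAs, guides of pseudouridine formation, had ratios in LDAH-Tg against WT only. Snora33, all 129 bases of which lie in an annotated exon of the ribosomal protein gene Rps12, had 5.60 TPM in LDAH-Tg cells and 11.2 TPM in their WT controls (log2 ratio -0.94), beside a ratio of 0.21 for Rps12. Snora57, for which no host was found, had 2.46 TPM in LDAH-Tg cells and 5.57 TPM in their WT controls (-1.03). Snora34, in Kansl2, had 3.71 TPM in LDAH-Tg cells and 8.05 TPM in their WT controls (-1.02), and it had 5.35 TPM in LDAH-KO cells while it was listed at 0 in their WT controls. The last of them, Snora78, lay close to its controls, with 6.51 TPM in LDAH-Tg cells and 7.54 TPM in their WT controls (-0.20), while its host Snhg9 had 5.89 TPM in LDAH-Tg cells and 9.58 TPM in their WT controls (-0.66).

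Box C/D snoRNAs, the guides of ribose methylation, had 3 ratios in each comparison, and 0 of them were lower by a factor of 1.5. Among all genes 0.685% were lower in LDAH-Tg against WT and 1.83% in LDAH-KO against WT, so nothing is read from this count. Snord17 had 2.08 TPM in LDAH-Tg cells and 2.07 TPM in their WT controls (0.00), and 1.06 TPM in LDAH-KO cells and 1.79 TPM in their WT controls (-0.56). The LDAH-KO ratio is short of a factor of 1.5 only because of the 0.5 TPM added, and it was -0.76 with nothing added. Snord15a, in Rps3, had 2.05 TPM in LDAH-Tg cells and 2.54 TPM in their WT controls (-0.25). Snord16a reached the highest level of any member, with 153.8 TPM in LDAH-KO cells and 109.6 TPM in their WT controls (0.49), yet it was listed at 0 in LDAH-Tg cells and in their WT controls. Its host Rpl4, whose annotated exon covers all 99 bases of Snord16a, had 776 TPM in LDAH-Tg cells and 914 TPM in their WT controls, and 1468 TPM in LDAH-KO cells and 1410 TPM in their WT controls.

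Many members were listed at 0 in one group and well above it in another. Of the 21 members that averaged at least 1 TPM over the 4 groups, 14 (66.7%) were listed at 0 in at least 1 group, beside 1.36% of all 11505 genes at that level, 0.229% of protein-coding genes and 37.4% of other genes with at most 450 bases of exon. A value listed at 0 can be a failed estimate, and no fold was taken against it. Snord89 had 27.9 TPM in LDAH-Tg cells and was listed at 0 in the other 3 groups. Snora28, in Eif5, had 12.1 TPM in LDAH-Tg cells and 11.8 TPM in LDAH-KO cells, with both WT control groups listed at 0. Snord15b, in Rps3, showed the opposite layout, listed at 0 in LDAH-Tg and LDAH-KO cells, with 14.5 TPM in the WT controls of LDAH-Tg and 6.01 TPM in the WT controls of LDAH-KO. Thus no single layout of zeros ran through the snoRNAs.

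For Snora43 a second entry covers the same stretch. Snora43 had 7.36 TPM in LDAH-Tg cells and was listed at 0 in their WT controls, but an overlapping entry that the table names Snhg7 held 7.69 TPM in those controls and under 0.001 TPM in LDAH-Tg cells. The entries together gave 7.36 TPM in LDAH-Tg cells and 7.69 TPM in their WT controls. For Snora16a, in Snhg12, the second entry held next to nothing, and the main entry had 4.07 TPM in LDAH-Tg cells with 0 listed in their WT controls, and a listing at 0 in LDAH-KO cells with 5.72 TPM in their WT controls. Another single value was Snora65, in the ribosomal protein gene Rpl12, at 7.62 TPM in the WT controls of LDAH-KO and listed at 0 in the other groups, and Snora31, in Tpt1, stood at 6.65 TPM in the WT controls of LDAH-Tg alone.

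The scaRNAs and spliceosomal RNAs were low. Scarna13 had 0.708 TPM in LDAH-Tg cells and 1.49 TPM in their WT controls (-0.72) and was listed at 0 in LDAH-KO cells and their WT controls. Scarna2, which has a gene of its own and guides modification of the U2 spliceosomal RNA, stayed under the level filter, with 0.252 TPM in LDAH-Tg cells and 0.564 TPM in their WT controls, and 0.146 TPM in LDAH-KO cells and 0.162 TPM in their WT controls. Rnu12, the U12 RNA of the minor spliceosome, had 1.91 TPM in LDAH-Tg cells and was listed at 0 elsewhere. The U3 snoRNA entries named Rnu3a, which act early in precursor ribosomal RNA cleavage, were above 0 in the WT controls of LDAH-Tg alone, at 1.29 and 0.081 TPM. The remaining 7 members (Snora23, Snora24, Snora64, Snora68, Snora74a, Scarna6 and Scarna10) had at most 4.94 TPM in any group and no ratio in either comparison.

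The mRNAs for the proteins that bind, make or trim these RNAs were set beside the members. Of 112 such genes, 111 had a ratio in LDAH-Tg against WT and 110 in LDAH-KO against WT, and 0 reached a factor of 1.5 in either direction in either comparison, with medians of 0.01 and -0.02 and ranges of -0.28 to 0.55 and -0.40 to 0.25. Among all genes 1.26% were higher and 0.685% lower in LDAH-Tg against WT, and 0.39% were higher and 1.83% lower in LDAH-KO against WT, so a count of 0 is close to the background and nothing is read from it. For 7SK, Larp7, which binds the RNA's 3′ end, had 13.1 TPM in LDAH-Tg cells and 15.2 TPM in their WT controls (-0.21), and 20.6 TPM in LDAH-KO cells and 18.9 TPM in their WT controls (0.12). Ccnt1, the cyclin of P-TEFb, had 24.8 TPM in LDAH-Tg cells and 21.6 TPM in their WT controls (0.19), and 8.12 TPM in LDAH-KO cells and 10.8 TPM in their WT controls (-0.39). For Rmrp and Rpph1, the shared subunits Pop1 (0.24 in LDAH-Tg, 0.01 in LDAH-KO) and Rpp30 (-0.23 and 0.03) lay near their controls. Snapc4, a subunit of the complex that starts transcription of small nuclear RNA genes, had 17.2 TPM in LDAH-Tg cells and 12.9 TPM in their WT controls (0.40), and 4.37 TPM in LDAH-KO cells and 5.70 TPM in their WT controls (-0.35). The farthest of the 112 in LDAH-Tg against WT was Zcchc7, a subunit of the complex that adds tails for nuclear RNA decay, at 40.1 TPM in LDAH-Tg cells and 27.2 TPM in their WT controls (0.55). The farthest in LDAH-KO against WT was Bdp1, a subunit of the RNA polymerase III initiation factor, at 8.65 TPM in LDAH-KO cells and 11.6 TPM in their WT controls (-0.40).

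Other RNAs that lack a poly(A) tail or derive from ribosomal RNA were set beside the members. The 70 replicative histone genes, whose mRNAs end in a stem-loop, summed to 358 TPM in LDAH-Tg cells and 344 TPM in their WT controls, and to 360.0 TPM in LDAH-KO cells and 347 TPM in their WT controls. Of the 10 with a ratio in LDAH-Tg against WT, 0 passed a factor of 1.5 (median 0.17). Of the 9 in LDAH-KO against WT, 1 was higher by that factor and 0 were lower (median 0.08). With 1.83% of all genes lower in LDAH-KO against WT and 0.685% in LDAH-Tg against WT, a count of 0 in lists this short is near the background. Lars2, a mitochondrial tRNA synthetase gene whose locus also draws ribosomal RNA reads in mouse data, had 29.8 TPM in LDAH-Tg cells and 44.6 TPM in their WT controls (-0.57), and 40.8 TPM in LDAH-KO cells and 77.2 TPM in their WT controls (-0.91), so it had the sign of Rn7sk and Rmrp in both. Of the other 5 entries linked to ribosomal RNA that had a ratio, Gm42418 alone was below 0 in both comparisons. The log2 ratios were 0.17 in LDAH-Tg and -1.06 in LDAH-KO for Gm26917, -0.61 in LDAH-Tg and -0.07 in LDAH-KO for Gm42418, and -0.43 in LDAH-Tg and 0.10 in LDAH-KO for Rn18s-rs5. The mitochondrial ribosomal RNAs had 0.31 in LDAH-Tg and -0.08 in LDAH-KO for mt-Rnr1, and 0.35 in LDAH-Tg and -0.17 in LDAH-KO for mt-Rnr2. The nuclear RNA Malat1 had 288 TPM in LDAH-Tg cells and 172 TPM in their WT controls (0.74), and 38.9 TPM in LDAH-KO cells and 70.0 TPM in their WT controls (-0.84), with opposite signs in the 2 comparisons. The 22 mitochondrial tRNAs were listed at 0 in every group. Rn7s1 and Rn7s2 reached at most 0.152 TPM in any group and Rn7s6 was listed at 0, so none of them had a ratio. The part of these RNAs in the levels of the members was not tested.

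Cell type markers were read as a check of the cells. Macrophage markers were present in all 4 groups except for Lyz2, which had 10105 TPM in LDAH-Tg cells and was listed at 0 in the other 3 groups. A listing at 0 thus also fell on an mRNA that was abundant in another group, and its cause was not tested. Cd68 stood between 3023 and 4959 TPM and Fcgr1 between 18.2 and 24.3 TPM. Adgre1 had 22.4 TPM in LDAH-Tg cells and 33.1 TPM in their WT controls. It had 146.6 TPM in LDAH-KO cells and 146.1 TPM in their WT controls. The 5 T and B cell markers reached at most 0.395 TPM. Of the 3 neutrophil markers, S100a8 stood between 63.8 and 107 TPM, S100a9 reached at most 0.740 TPM and Ly6g was listed at 0. The 5 fibroblast markers summed to 18.3 TPM in LDAH-Tg cells and 19.9 TPM in their WT controls. They summed to 15.4 TPM in LDAH-KO cells and 29.8 TPM in their WT controls. The sum was lower in both, as Rn7sk, Rmrp and Rpph1 were, and by more in LDAH-KO cells. The markers did not all go this way in LDAH-Tg against WT, where 2 of 3 with a ratio were above 0 (median 0.04). The 1 below 0 was Dcn, at 10.8 TPM in LDAH-Tg cells and 12.8 TPM in their WT controls. In LDAH-KO against WT all 3 with a ratio were below 0. The 6 mesothelial markers summed to 8.08 TPM in LDAH-Tg cells and 7.42 TPM in their WT controls, and to 4.16 TPM in LDAH-KO cells and 6.59 TPM in their WT controls, higher in LDAH-Tg cells and lower in LDAH-KO cells. The part of either list in the levels of the members was not tested. Ldah, the targeted gene, had 124 TPM in LDAH-Tg cells and 28.5 TPM in their WT controls, and 27.9 TPM in LDAH-KO cells and 44.5 TPM in their WT controls. Reads from exons outside the replaced ones can count towards it, but the values are per gene and do not show which exons were read. The part of such reads was not tested.

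The control groups were far apart from each other as well. In the WT controls of LDAH-Tg against the WT controls of LDAH-KO, 5 of 8 members with a ratio were higher (12.1% of all 11404 genes were) and 0 were lower (26.5% of all genes were), with a median log2 ratio of 0.78 beside -0.17 for all genes. Rn7sk alone among the 8 had a negative sign there. Levels of the members across the 2 lines are given side by side, and ratios were taken within each genotype and its own controls.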

How the data were processed

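RNA was taken from 16 macrophage samples, 4 in each of 4 groups. The authors made poly(A)-enriched stranded libraries, trimmed paired reads with Trimmomatic and aligned them with STAR 2.4.2a to mm10 (GRCm38). Their processing notes also name HTSeq, DESeq2 and Cuffdiff 2.2.1. The tool and annotation release behind the deposited TPM values are not given in the sources used here. The deposited table, the authors' own, holds the mean TPM of each group for 48432 genes, and each column sums to 1000000. 1 line with no gene name, holding the total, was left out. In short transcripts few reads can set a TPM value, and the depth is not known.

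Log2 ratios of group means were computed with 0.5 TPM added, for genes averaging at least 1 TPM with no group at 0, and a factor of 1.5 was counted (Python 3.11.15, numpy 2.4.6, pandas 2.3.3, matplotlib 3.10.9). The script was tested on simulated data. With group means only, the limma test considered for single samples was not run. Gene IDs were matched to GENCODE M21 (48053 of 48432, and 34 of 34 members), which gave lengths, hosts and sequences. A host was a gene on the same strand whose span holds the whole member.

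The members and lists were chosen with earlier results of these data known. Named genes were Rn7sk, Rmrp, Rpph1, Terc and every Rnu and Scarna member averaging at least 1 TPM, the 15 members highest in mean TPM, the 8 highest and 8 lowest ratios in each comparison, members past the factor in both, members listed at 0 in a group but at 5 TPM or more in another, up to 3 genes with the largest ratios of each partner list, and host genes. Members named outside this rule (Scarna2, Scarna13, Rnu12 and Rnu3a where it did not reach them) complete the account of their class. Alternatives were other pseudocounts, filters, scalings and factors, and leaving out members that overlap or share sequence with other genes. Sequence shared with an overlapping gene was not counted as shared, except for a second entry of the same stretch. Summing overlapping entries was added after seeing the data.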

Additional observations from a re-analysis of the deposited data

How the results depend on the processing

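No paired analysis was possible because the file holds group means only, and no replicate could be left out for the same reason. Rn7sk, Rmrp, Rpph1 and Snord22 kept their direction and stayed past a factor of 1.5 in both comparisons under every alternative that still held them, with log2 ratios in LDAH-Tg against WT of -1.09 to -1.02 for Rn7sk, -1.28 to -1.20 for Rmrp, -0.72 to -0.67 for Rpph1 and 2.16 to 2.24 for Snord22, and in LDAH-KO against WT of -1.36 to -1.22 for Rn7sk, -1.96 to -1.72 for Rmrp, -0.82 to -0.66 for Rpph1 and 0.82 to 0.95 for Snord22. A factor of 2 left Rpph1 out in both comparisons and Snord22 in LDAH-KO against WT.

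Counts of members moved more, being small. In LDAH-Tg against WT, the number higher (1) became 2 with a pseudocount of 0.1 and with none, 6 when genes listed at 0 in 1 group were kept, and 0 without members that overlap an exon of another gene on the same strand. The number lower (8) became 12 with genes at 0 kept, 4 at a factor of 2 and 5 without such overlap. In LDAH-KO against WT, the number higher (1) became 3 with genes at 0 kept, 0 at a factor of 2 and 0 without exon overlap. The number lower (4) became 7 with genes at 0 kept, 6 with a pseudocount of 0.1 and with none, when Snord17 (-0.71 and -0.76) and Snora73b (-0.64 and -0.68) also passed the factor, and 2 at a factor of 2, without exon overlap, and without members that share sequence with another gene, and the median became -0.94 without exon overlap. The number lower in LDAH-KO against WT was 3 at a mean TPM of at least 5 and with 1 member per host gene. A ratio against a group at 0 is set by the pseudocount, and the subsets hold fewer members by construction. Of single values, Snord17 in LDAH-Tg against WT turned to -0.0433 under quantile normalization, and Snora73a in LDAH-Tg against WT turned to 0.14 once summed with Snora73b. The cause of the change in Snord17 was not tested.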
